A study of Mus musculus with 4 samples.

Results

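The cells described here are dendritic cells marked by *Cd209a* in injured mouse muscle. They were chosen by measured values, and 697 of the 17665 barcodes kept after quality limits met the rule, out of 20500 barcodes in all. A kept barcode had at least 500 genes and under 10% mitochondrial UMIs (distinct RNA molecules). A member also held at least 1 UMI of *Cd209a*, which encodes a C-type lectin receptor. It held at least 50 UMIs per 10000 of *Cd74*, *H2-Aa*, *H2-Ab1* and *H2-Eb1* in sum, the genes of the MHC class II molecule and its invariant chain. Macrophages were kept out by a limit of under 5 UMIs per 10000 of *C1qa*, *C1qb* and *C1qc*, and neutrophils by under 100 per 10000 of *S100a8* and *S100a9*. Barcodes with 2 or more UMIs of *Xcr1* and *Clec9a*, which mark type 1 dendritic cells, or with any *Cd79a*, a B cell gene, were also left out.

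Dendritic cells take up material in tissues, load its peptides on MHC molecules and show them to T cells. Conventional dendritic cells have a type 1 branch, which depends on the factors IRF8 and BATF3 and is known for presenting antigen to CD8 T cells, and a type 2 branch, which uses IRF4 and KLF4 and is known for presenting antigen to CD4 T cells. In inflamed tissue, monocytes can take on genes of the type 2 branch, so that the border between such cells and type 2 dendritic cells is not sharp at the level of single markers.

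The libraries came from the tibialis anterior of the lower leg in male C57BL/6 mice aged 8-12 weeks, and magnetic beads had enriched the cells for CD45, the surface mark of leukocytes. Cardiotoxin, a venom toxin that destroys myofibres, had been injected 2 or 4 days before (dpi2 and dpi4). Control mice were Bach1 fl/fl, and mice labelled KO were Bach1 fl/fl littermates that also carried Lyz2-Cre, so that both genotypes had loxP sites around exon 4 of *Bach1*, a heme-sensing repressor of transcription. The *Lyz2* promoter drives Cre in monocytes, macrophages and neutrophils, and how many of the dendritic cells had deleted the exon was not measured by these counts. Each of the 4 groups was 1 library, so there were no replicates, no test was run, and every interval below is a 95% interval for counting error only. Per the paper, this assay had a single sample per group, and whether a sample held cells of a single mouse or of pooled mice was not given by the labels.

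Library totals ran from 57010520 to 80228489 UMIs, and the median depth of kept barcodes from 10983 to 15311. The 4 libraries shared 44 barcode sequences over all pairs, and none was a member in both. *Bach1* stood at 186 CPM (UMIs of a gene over all UMIs of the members, times 1000000) in control and 145 in KO at dpi2, and at 287 and 245 at dpi4. The 3′ tags counted here lie outside the floxed exon, so these values do not check the genotype. *Lyz2*, whose locus carries the Cre, followed the labels in the dendritic cells, with 2109 CPM in control and 1.21 in KO at dpi2, and 3016 and 5.64 at dpi4.

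The dendritic cells made up a like share of kept barcodes in 3 of the libraries and a larger one in KO at dpi4. They were 210 of 6010 in control (3.49%, exact interval 3.04% to 3.99%) and 151 of 3799 in KO (3.97%, 3.38% to 4.65%) at dpi2. At dpi4 they were 151 of 4323 in control (3.49%, 2.97% to 4.08%) and 185 of 3533 in KO (5.24%, 4.52% to 6.02%). The KO share exceeded the control share by 0.48 percentage points at dpi2 (-0.30 to 1.29), which was within counting error, and by 1.74 points at dpi4 (0.82 to 2.69). Within KO, the share was 1.26 points higher at dpi4 than at dpi2 (0.28 to 2.25). The spread between mice is unknown, and a share also moves with the number of the other cells in the library.

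The members had median totals of 10873.5 UMIs (control) and 14086 (KO) at dpi2 and 10931 and 10742 at dpi4, beside 10983, 11934, 15311 and 13894 in all kept barcodes, so that they were shallower than other cells at dpi4. Their median *Cd209a* counts were 7.5, 10, 8 and 8 UMIs in the same order. The edges of the rule were not equally populated. Exactly 1 *Cd209a* UMI was held by 31, 18, 20 and 23 members, while 194, 124, 117 and 146 barcodes met every condition but that of *Cd209a*. The C1q limit alone kept out 15 and 10 barcodes at dpi2 but 83 in control and 48 in KO at dpi4, when macrophages were many. In control at dpi4 the nearest barcode inside that limit was at 4.97 and the nearest outside at 5.02 per 10000; in KO they were at 4.81 and 5.42. For MHC class II the nearest inside were at 59.4, 54.8, 103 and 55.4 per 10000 and the nearest outside at 43.5, 38.0, 48.3 and 49.99. The limits on *S100a8* and *S100a9* and on *Cd79a* each kept out 3 or fewer barcodes of a library.

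The markers named for these cells that the rule did not use, *Klrd1*, *Mgl2* and *H2-Oa*, were present in every library. *H2-Oa* was not particular to the members, at 0.91 to 2.17 times the level of type 1 dendritic cells. *Klrd1* (GRCm38 chromosome 6, 129591782 to 129598775, plus strand) encodes CD94, a lectin-like receptor known from natural killer cells, and stood at 661 CPM in control and 775 in KO at dpi2, and at 659 and 580 at dpi4. *Mgl2* (chromosome 11, 70130329 to 70137550, plus strand), a galactose-type lectin, had 130 and 131 CPM at dpi2 and 226 and 237 at dpi4. *H2-Oa* (chromosome 17, 34092340 to 34095234, plus strand) encodes a chain of H2-O, which restrains peptide loading on MHC class II, and had 66.8 and 70.2 CPM at dpi2 and 212 and 200 at dpi4. *Klrd1* was near one level in the 4 libraries, while *H2-Oa* and *Mgl2* were higher at dpi4 in both genotypes. *Cd209a* itself (chromosome 8, 3743397 to 3748984, minus strand) had 986, 915, 883 and 1034 CPM, a level that the rule sets in part.

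To compare shares of cells at one depth, each cell was thinned to 3000 UMIs, which left out 3, 2, 0 and 3 members. *Klrd1* was then found in 60.9% and 66.4% of the members at dpi2 and in 66.9% and 65.9% at dpi4. *Mgl2* was found in 10.1% and 15.4%, then in 23.8% and 20.9%. *Flt3*, the receptor for the cytokine that sustains dendritic cells, was found in 18.4% and 20.8%, then in 42.4% and 34.1%. In T cells, a class that should lack them, *Mgl2* and *Flt3* were each found in 0 of 90 thinned cells, which allows a share of up to 3.33%. At this depth *Klrd1* was thus found in most members and *Mgl2* in fewer than 1 in 4. *Klrd1* was not confined to the members, as mature dendritic cells had 402 CPM of it in control and 430 in KO at dpi4. The KO minus control differences in these shares all lay within counting error, such as -8.3 points for *Flt3* at dpi4 (-19.1 to 2.6).

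**Figure D1:**
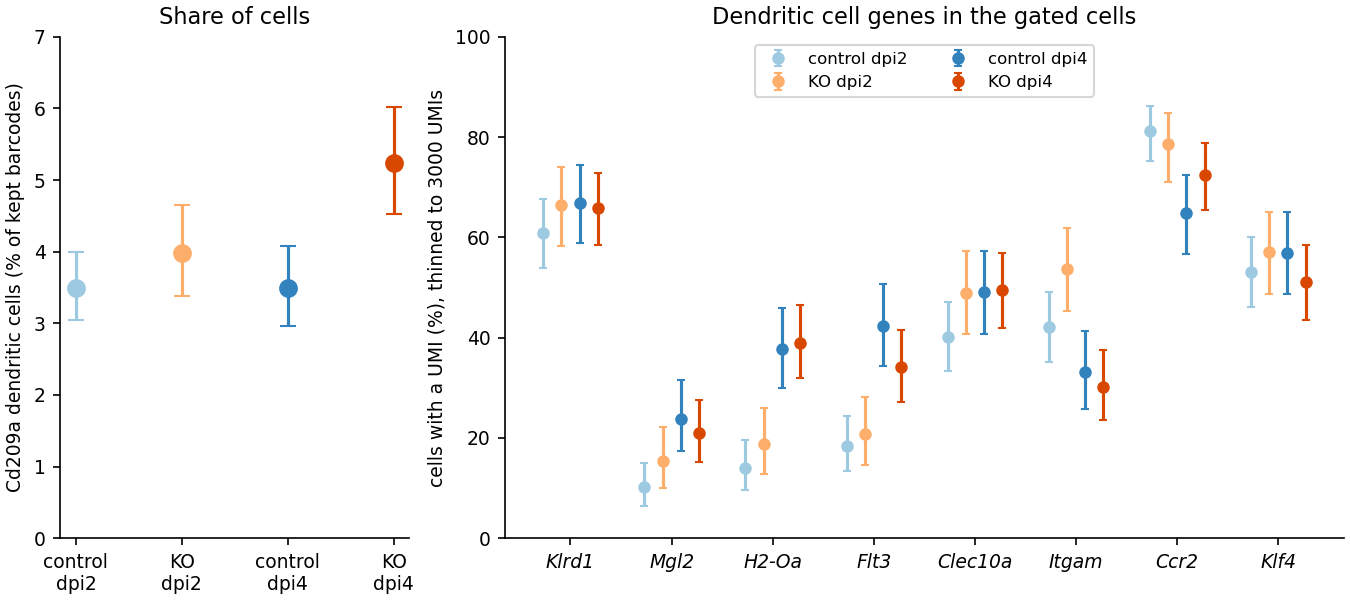
The left panel plots the share of kept barcodes that were *Cd209a* dendritic cells (percent), and the right panel the share of these cells with a UMI of each gene at 3000 UMIs per cell (percent). Points are the 4 libraries and bars exact 95% counting intervals; the share of cells was 5.24% in KO at dpi4 and from 3.49% to 3.97% in the other libraries, and *H2-Oa* and *Flt3* lay higher in both dpi4 libraries than in both dpi2 libraries.

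Compared with neighbouring classes of cell, the members had from 8.14 to 124 times the level of the leading genes, which were ranked by their lowest ratio over the 4 libraries. The neighbours were type 1 dendritic cells (143 cells), mature dendritic cells with *Ccr7* and *Fscn1* (77), macrophages high in MHC class II (1788) and T cells (101), each gated on its own markers, and no test was run. Against type 1 dendritic cells, *Itgam*, the integrin chain CD11b, was from 18.3 to 23.4 times as high over the 4 libraries. *Clec10a*, another galactose-type lectin, was from 13.7 to 34.4 times as high, and *Mgl2* from 12.4 to 54.8 times. The other genes that led this comparison were *Fn1*, *Lilrb4a*, *Gda*, *Tnf* and *Ccl9*. Against mature dendritic cells, the chemokine receptor gene *Ccr2* led with ratios from 19.4 to 92.9, ahead of *Ckb*, *Fxyd5*, *Tgfbi*, *Alox5ap*, *Cxcl2*, *Anxa1* and *Plbd1*. Against macrophages, *Cd209d*, *Klrd1* and *Cd7* led with ratios from 18.8 to 62.9, from 16.3 to 124 and from 15.5 to 59.0. *Flt3* was from 12.1 to 24.1 times as high as in macrophages, and *P2ry10*, *Ffar2*, *Ifitm1* and *Siglecg* were the other genes that led there. But *Flt3* was only 0.48 to 0.74 times as high as in type 1 dendritic cells and 0.49 to 0.76 times as in mature ones. *Zbtb46*, another dendritic cell gene, was at 0.46 to 0.76 and 0.20 to 0.54 times, against 8.67 to 18.0 times for macrophages. *Sirpa*, a type 2 gene, was at 0.31 to 0.44 times macrophages and 6.87 to 23.4 times type 1 dendritic cells. Where a neighbour held fewer than 3 UMIs of a gene, 3 were taken as a floor, and those ratios are lower bounds.

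**Figure D2:**
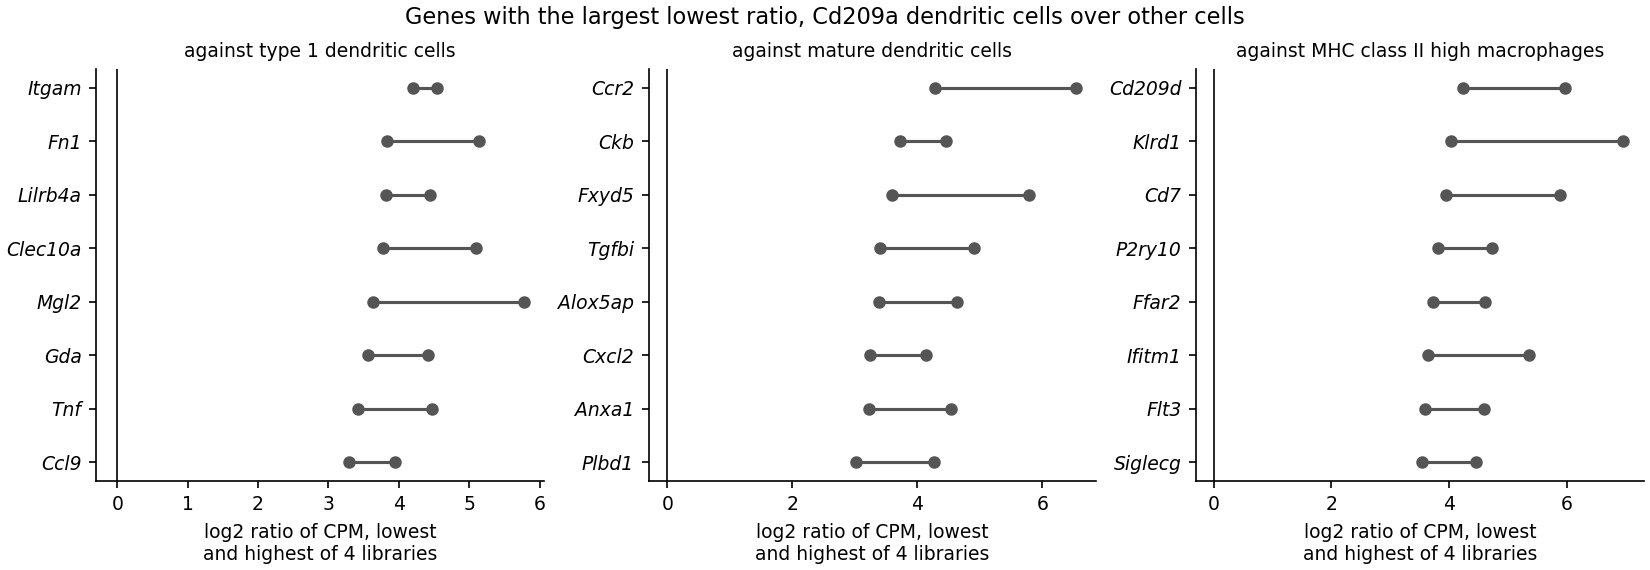
Points are the lowest and the highest of the 4 within-library log2 ratios of CPM, *Cd209a* dendritic cells over each neighbouring class, for the 8 genes that led each comparison. All lay above 0, and the lowest log2 ratios of *Itgam*, *Ccr2* and *Cd209d*, which led the 3 panels, were 4.196, 4.277 and 4.231.

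Monocyte, plasmacytoid and macrophage genes were present in the members in every library, and markers of most other cell types were low. The 10 monocyte genes summed to 4870 CPM in control and 3335 in KO at dpi2 and to 2350 and 2541 at dpi4, beside 1787, 2204, 2063 and 1944 CPM for the 10 type 2 dendritic cell genes. In macrophages the monocyte sums were 5991 and 4181 CPM, then 1963 and 2111, so that the members were below them at dpi2 and above them at dpi4. The type 2 sums of macrophages ran from 1506 to 1707 CPM, below those of the members in each library. The 8 dendritic cell core genes summed to 1148, 1105, 1151 and 1206 CPM in the members, in the same order. Type 1 dendritic cells had more (1319, 1152, 1332 and 1466 CPM) and macrophages less (239 to 465 CPM). The 6 plasmacytoid genes summed to 1010 and 572 CPM at dpi2 and to 623 and 828 at dpi4, and macrophages, at 492 to 1003 CPM, were close to this. The summed level of 10 macrophage genes was 488 and 424 CPM at dpi2 and 1414 and 881 at dpi4, with none of the 10 at 0 in any library. T cells, in the same order, held 659, 316, 1146 and 663 CPM of these genes. Type 1 dendritic cells held 163, 157, 1508 and 380 CPM, and macrophages from 4054 to 33764 CPM. Of the monocyte genes, T cells held 4410, 1337, 2299 and 1914 CPM. The part of free RNA in the members' sums was not tested. Of 7 T and NK cell genes the sums ran from 0.403 to 41.8 CPM, and 6 were at 0 in KO at dpi2 and 6 in control at dpi4. B cell genes (4) summed to between 3.23 and 12.8 CPM, neutrophil genes (6) to between 15.5 and 51.6 CPM, and red blood cell genes (3) to at most 1.12 CPM. The 9 muscle and stroma genes summed to 3.07 and 3.63 CPM at dpi2 and to 37.6 in KO at dpi4, but to 755 in control at dpi4, where 95.5% of them lay in 1 cell.

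The next comparison asked how the dendritic cells of KO and control libraries differed at each time. A gene was counted as past the size rule when it was 2-fold or more higher or lower, with an interval that left out 1 and with 50 or more UMIs in the pair of libraries. At dpi2, of 7034 genes tested, 77 were higher in KO (1.09%) and 118 lower (1.68%). At dpi4, of 6502 genes, 58 were higher (0.892%) and 67 lower (1.03%). Only 3 genes were higher at both times (*Lyz1*, *Hmox1* and *Flrt3*) and 5 lower at both (*Lyz2*, *Mpp1*, *Klf2*, *Ifit3b* and *Klra17*), while 15 went past the rule in opposite directions. These counts describe 4 libraries and are not calls of a test. Ratios between libraries are given from here on as log2 ratios.

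Interferon-induced genes, the list with the most members past the size rule between the genotypes, were lower in KO than in control at dpi2. Type I interferons act through a receptor at the cell surface to switch on a shared set of antiviral genes, and 19 of these were listed. At dpi2, 18 of the 19 had a log2 ratio below 0 and 15 were past the size rule as lower, with a median of -1.32 beside -0.03 over all genes tested. At dpi4 none was past the rule as lower and 1 (*Cxcl10*) as higher, and the median was 0.10 beside 0.03. *Irf7*, the factor that amplifies interferon production, had 330 CPM in control and 121 in KO at dpi2 (log2 ratio -1.45, -1.65 to -1.26), but 134 and 148 at dpi4. The control cells at dpi2 thus stood alone, and the other libraries lay close to each other.

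The same order was seen for the effector genes of the list. *Rsad2*, which encodes the antiviral enzyme viperin, had 330 and 105 CPM at dpi2 and 85.3 and 97.8 at dpi4 (log2 ratio -1.65 at dpi2, -1.86 to -1.45). *Ifit3*, an RNA-sensing complex member, had 260 and 98.9 CPM, then 91.4 and 71.9. *Isg15*, a ubiquitin-like modifier, had 683 and 351 CPM, then 196 and 211, and its dpi2 log2 ratio of -0.96 (-1.08 to -0.84) fell just short of 2-fold. In each, control at dpi2 was the highest library, and for *Isg15* KO at dpi2 also lay above both dpi4 libraries. The chemokine gene *Cxcl10* had 615 and 125 CPM at dpi2 and 44.6 and 168 at dpi4, but 1 cell held 59.5% of its KO UMIs at dpi2 and 1 cell 67.5% at dpi4. Without the highest cell of each library its log2 ratio was -3.35 at dpi2 and 0.88 at dpi4.

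Per cell, the list did not rest on a few cells. Summed over the 19 genes, the median member of control at dpi2 held 68.1 UMIs per 10000 (10th to 90th percentile 24.2 to 161), against 24.0 (6.8 to 76.4) in KO. At dpi4 the medians were 19.1 in control and 22.2 in KO. The highest cell held between 3.0% and 8.6% of the list's UMIs in a library, and no member of any library was without one. At the fixed depth, *Isg15* was found in 31.8 percentage points fewer members of KO than of control at dpi2 (interval of the difference -41.7 to -21.1), and the difference at dpi4 was 2.8 points (-6.9 to 12.2). *Ifit3* was found in 23.5 points fewer at dpi2 (-31.5 to -14.8).

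**Figure D3:**
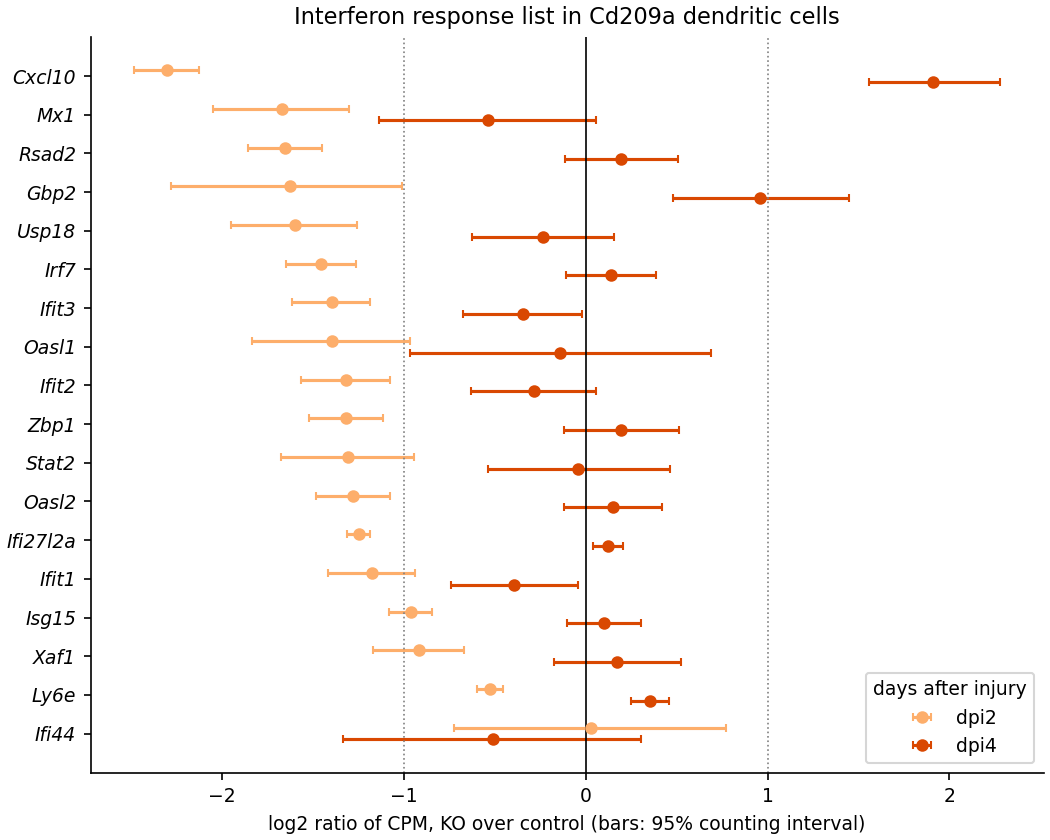
Points are log2 ratios of CPM, KO over control, of 18 of the 19 interferon-induced genes in the *Cd209a* dendritic cells at dpi2 and at dpi4, with 95% counting intervals; the dotted lines mark 2-fold. At dpi2, 17 of these 18 lay below 0, and at dpi4, 8 lay below and 10 above 0.

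The stretches before the start of these genes are shown because interferon signalling acts through a short element there, written here as GAAANNGAAA and searched on both strands. Of the 19 genes, 13 had a RefSeq promoter entry (GRCm38.p6), and 7 of the 13 held the element within 250 bases before the start, while 3.46% of 27025 genes did (2.98% of 32851 windows of the same length). Of 6 type 2 dendritic cell genes with an entry, none held it, and of 8 dendritic cell core genes 1 did. These dendritic cell lists are too small to set against the share over all genes. A match is a description of these letters only. The 250 bases are given 5′ to 3′ on the gene's strand, with matches in capitals.
Cxcl10 (chr5:92348890-92349139, minus strand): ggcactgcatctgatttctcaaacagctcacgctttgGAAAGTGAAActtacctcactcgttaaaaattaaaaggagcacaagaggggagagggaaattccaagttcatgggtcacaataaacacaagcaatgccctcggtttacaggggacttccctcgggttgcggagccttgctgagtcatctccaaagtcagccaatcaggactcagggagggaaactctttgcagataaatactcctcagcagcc
Rsad2 (chr12:26456453-26456702, minus strand): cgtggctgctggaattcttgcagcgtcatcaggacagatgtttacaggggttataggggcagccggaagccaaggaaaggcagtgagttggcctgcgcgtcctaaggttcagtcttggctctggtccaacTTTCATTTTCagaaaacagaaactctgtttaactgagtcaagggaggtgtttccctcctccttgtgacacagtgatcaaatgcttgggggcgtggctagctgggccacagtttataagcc
Ifit3 (chr19:34583279-34583528, plus strand): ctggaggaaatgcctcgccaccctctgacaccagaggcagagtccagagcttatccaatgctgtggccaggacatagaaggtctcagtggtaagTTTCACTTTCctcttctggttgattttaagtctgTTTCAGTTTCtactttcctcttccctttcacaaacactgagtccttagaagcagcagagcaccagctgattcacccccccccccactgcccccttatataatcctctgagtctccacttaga
Isg15 (chr4:156200819-156201068, minus strand): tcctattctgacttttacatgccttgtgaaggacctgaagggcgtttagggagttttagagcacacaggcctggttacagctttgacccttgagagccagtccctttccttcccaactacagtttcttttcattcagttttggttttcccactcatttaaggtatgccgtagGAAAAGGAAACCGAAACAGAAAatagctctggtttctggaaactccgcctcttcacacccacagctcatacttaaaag
In *Ifit3* and *Isg15* matches stood close together or overlapped, at positions -156 and -122 and at -78, -72 and -66, and *Cxcl10* and *Rsad2* had a single one each, at -213 and -120. *Irf7*, which was also past the size rule at dpi2, held none in its window.

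Other classes of cell in the same libraries were set beside the list. In macrophages the median at dpi2 was -2.01 with all 19 below 0 and 16 past the rule, and over all kept barcodes it was -1.55. In type 1 dendritic cells, which were few, the median was -0.60 at dpi2 with 12 of 16 scored genes below 0, and -0.90 at dpi4 with 17 of 18 below 0 and 5 past the rule. In T cells it was -0.32 over 9 scored genes at dpi2. The lower level at dpi2 was therefore not particular to the *Cd209a* dendritic cells. The difference between classes was not tested. RNA freed from other cells can add to these counts, and its part in the result was not tested.

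**Figure D4:**
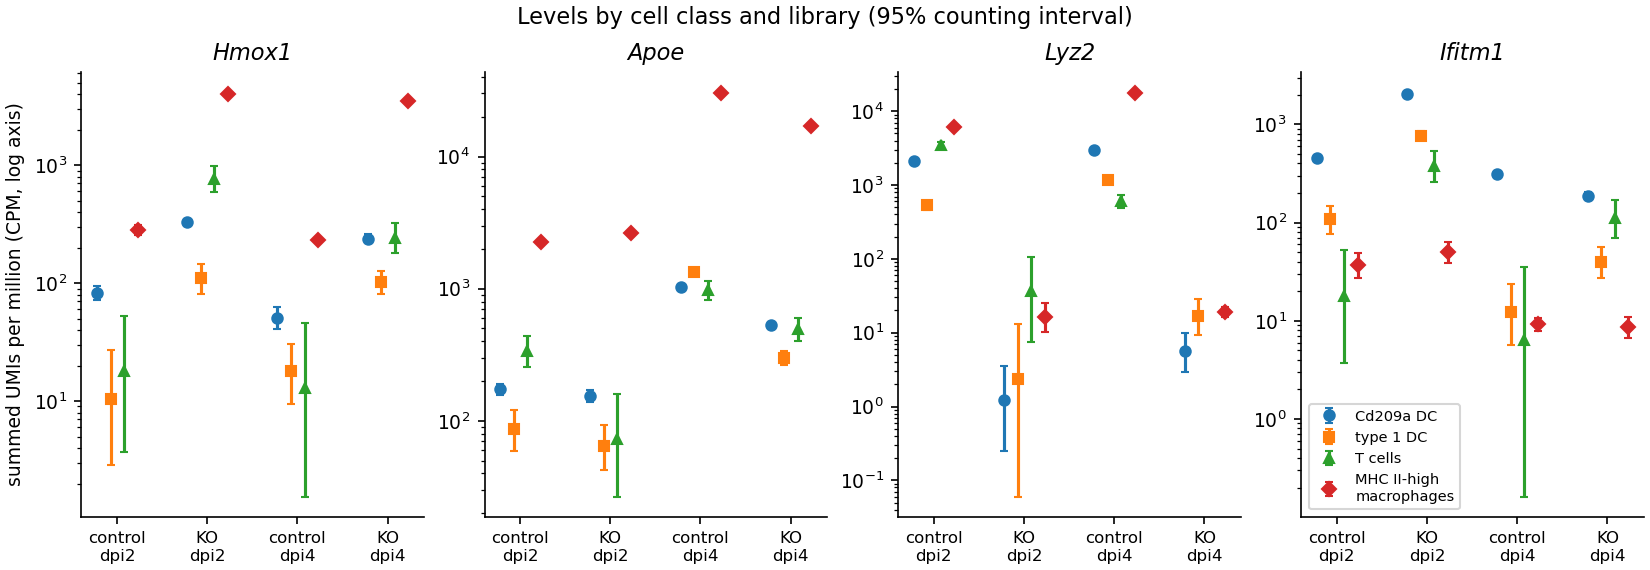
Levels (CPM, log axis) of *Hmox1*, *Apoe*, *Lyz2* and *Ifitm1* in 4 classes of cell and 4 libraries, with exact 95% counting intervals; T cells held no *Lyz2* UMI in KO at dpi4 and have no point there. For *Hmox1* the *Cd209a* dendritic cells of KO (327 and 237 CPM) lay below macrophages (4025 and 3502 CPM) and not above T cells, while for *Ifitm1* they were the highest class in every library.

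MHC class I genes, which are partly under interferon control, were slightly lower in the same direction. All 10 listed genes had a ratio below 0 at dpi2, with a median of -0.37, and 1 was past the rule, the transactivator gene *Nlrc5* (28.8 CPM in control and 13.3 in KO). At dpi4, 9 of the 10 were above 0 with a median of 0.22. The MHC class II genes did not differ to this size, with medians of 0.07 and 0.05 over 9 genes that the rule did not use and none past it.

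*Hmox1*, a direct BACH1 target that encodes heme oxygenase, was higher in KO at both times in the members and in their neighbours. *Hmox1* (chromosome 8, 75093621 to 75100589, plus strand) had 82.1 CPM in control and 327 in KO at dpi2, and 50.7 and 237 at dpi4. The log2 ratios were 1.99 (1.77 to 2.22) and 2.23 (1.90 to 2.56). A single control cell at dpi2 held 45.8% of that library's *Hmox1* UMIs. Without the highest cell of each library the log2 ratios were 2.71 and 2.38. T cells had 18.0 and 766 CPM, then 12.8 and 243, and type 1 dendritic cells had 10.5 and 110, then 17.9 and 101. Over all kept barcodes they were 505 and 8215, then 424 and 6332. In KO the members were thus at 4.0% and 3.7% of the level of all kept barcodes, not above T cells and above type 1 dendritic cells. At the fixed depth 39.6% and 44.5% of the KO members and 21.4% and 51.7% of the T cells held a UMI. At dpi2 the members' share was thus the higher one, though their level was not. The T cells of KO were few, with 15 cells at dpi2 and 32 at dpi4, of which 14 and 29 were thinned. The part of free RNA in these levels was not tested.

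Most of the other heme, iron and redox genes of the list differed by less than the size rule. Of 14 scored genes, 11 were above 0 at dpi2 with a median of 0.15, and 6 at dpi4 with a median of -0.03. Besides *Hmox1*, the rule was passed at dpi2 by *Slc7a11*, the cystine importer (59.5 and 128 CPM, log2 ratio 1.10). At dpi4 its level was 49.6 CPM in control and 27.7 in KO. *Slc40a1*, the iron exporter ferroportin, had no UMI in control and 6 in KO at dpi2, and 3 and 31 at dpi4 (1.67 and 14.6 CPM). Its log2 ratio at dpi4 was 3.12 (1.44 to 5.48), the highest of the list, with UMIs in 25 KO cells, but it had too few UMIs for the size rule. Macrophages held 33.8 CPM of it in control and 346 in KO at dpi4. *Fth1* and *Ftl1*, the ferritin chains, had log2 ratios from -0.15 to 0.13. In macrophages of the same libraries all 15 scored genes at dpi2 and all 17 at dpi4 were above 0, with medians of 0.84 and 0.85. *Bach2*, *Nfe2l2* (NRF2) and the small MAF genes were not past the rule between genotypes at either time.

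*Lyz2* and *Lyz1*, neighbouring and near-identical lysozyme genes, moved in opposite directions. *Lyz2* had log2 ratios of -10.77 at dpi2 and -9.06 at dpi4. T cells of the control libraries also held *Lyz2* (3529 and 608 CPM), and the part of free RNA in the control level was not tested. *Lyz1* had 0.768 CPM in control and 105 in KO at dpi2, and 52.4 and 244 at dpi4. These UMIs came from 28 and 33 KO cells, and a single cell held 25.3% and 50% of them, while 1 cell held 89.4% of those in control at dpi4. When at least 2 UMIs of *Cd209a* were asked for, the *Lyz1* log2 ratio at dpi4 went from 2.22 to -0.99. Reads that fit both copies could have been assigned to either.

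At dpi2 the KO cells also differed in single monocyte genes. *Ly6c2*, which encodes the LY6C protein of inflammatory monocytes (chromosome 15, 75108158 to 75111970, minus strand), had 567 CPM in control and 112 in KO at dpi2, and 78.6 and 141 at dpi4. Its log2 ratio was -2.34 at dpi2 (-2.53 to -2.15) and 0.84 at dpi4 (0.54 to 1.14). A UMI was found in 39.1% of control and 13.4% of KO members at dpi2, and in 5.3% and 12.1% at dpi4. The KO minus control difference was -25.7 points at dpi2 (-34.3 to -16.3). Macrophages had a like ratio, with 1049 and 225 CPM at dpi2. *Fcgr1*, the high-affinity IgG receptor, had 225 and 127 CPM at dpi2 and was not past the rule. Of the 10 monocyte genes, *Ly6c2* alone was past it as lower and *Cd14*, the co-receptor for bacterial lipopolysaccharide, alone as higher (206 and 441 CPM, 1.10), and the list's median was -0.07.

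*Ifitm1*, an interferon-inducible membrane protein gene (chromosome 7, 140967221 to 140969825, plus strand), went against the interferon list. Its level was 459 CPM in control and 2056 in KO at dpi2, then 311 and 186, which gave log2 ratios of 2.16 (2.07 to 2.26) and -0.74 (-0.93 to -0.55). It was found in 32.9% and 72.5% of thinned members at dpi2 and in 23.8% and 20.3% at dpi4, so that KO at dpi2 stood apart. The highest cell held at most 11.3% of its UMIs in any library. Type 1 dendritic cells had 108 and 767 CPM at dpi2, while macrophages had 36.7 and 49.9. T cells had 18.0 and 377 CPM, below the members.

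Some genes of C-type lectin receptors were higher in KO at dpi2. *Clec4d*, *Clec4e* and *Clec4n*, which encode receptors for microbial and damage-related glycolipids and sugars, had log2 ratios of 1.004, 1.02 and 1.05 at dpi2. *Clec4e* had 86.7 CPM in control and 176 in KO at dpi2, and 85.9 and 26.3 at dpi4. *Cd209d*, a relative of *Cd209a*, had 42.6 and 112 CPM at dpi2 and 61.3 and 57.4 at dpi4. With these, 4 of 12 scored C-type lectins were past the rule as higher at dpi2, beside 1.09% of all genes tested. At dpi4, 2 (*Clec4d* and *Clec4e*) were past it as lower, beside 1.03% of all genes. The list as a whole moved little, with medians of 0.12 at dpi2 (5 of 12 below 0) and -0.21 at dpi4 (9 of 12 below 0). The C-type lectin genes lie in families of similar sequence, as do *Lyz1* and *Lyz2*, *Ifit3* and *Ifit3b*, *Hspa1a* and *Hspa1b* and the *Klra* genes, and how reads were shared between copies was not stated.

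Among secreted factors, *Il1b*, a fever-inducing cytokine gene, had 1950 CPM in control and 3740 in KO at dpi2. Its log2 ratio of 0.94 was just short of 2-fold, and its levels at dpi4 were 3455 and 2895. *Tnf* had 91.3 and 138 CPM, then 183 and 90.7, a log2 ratio of -1.02 at dpi4. *Il15*, which sustains natural killer and memory T cells, had 18.0 and 5.65 CPM at dpi2. *Areg*, an epidermal growth factor family ligand, had 7.29 and 44.4 CPM at dpi2 (log2 ratio 2.61, 1.89 to 3.39), in 10 control and 22 KO cells. The chemokine gene *Ccl17* had 6.91 and 46.4 CPM at dpi2, with 60.9% of the KO UMIs in 1 cell. At dpi4 *Cxcl9* (1.12 and 77.1 CPM), *Ccl5* (85.9 and 203) and *Ccl22* (6.69 and 42.3) were past the rule as higher in KO, and 93.3%, 76.4% and 60% of their KO UMIs lay in 1 cell.

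*Klra17*, *Mpp1* and *Klf2* were past the rule as lower in KO at both times, the last of these at dpi4 only when its highest cells were counted. *Klf2*, a factor known for keeping T cells quiescent, had 124 CPM in control and 48.0 in KO at dpi2, then 140 and 64.4, and log2 ratios of -1.36 (-1.68 to -1.06) and -1.12 (-1.43 to -0.81). A single control cell at dpi4 held 17.9% of its UMIs, and without the highest cell of each library the dpi4 ratio was -0.93, short of 2-fold. In type 1 dendritic cells it had 168 and 112 CPM, then 156 and 165. At the fixed depth the *Klf2* share was 14.5 points lower in KO at dpi2 (-22.0 to -6.5), and the difference was -1.6 points at dpi4 (-11.0 to 7.6). *Klra17*, which encodes a receptor of the Ly49 family known from plasmacytoid dendritic cells, had 51.4 and 23.8 CPM, then 44.1 and 21.2, and was under 10 CPM in type 1 dendritic cells of every library. *Mpp1*, a membrane scaffold gene, had 47.2 and 21.4 CPM, then 36.8 and 16.5. *Flrt3*, an adhesion protein gene, was the other way round, with 17.3 and 50.03 CPM, then 10.0 and 21.6. *Ifit3b* had 30.7 and 9.28 CPM, then 24.0 and 11.3.

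Some of the leading genes were carried by 1 cell or moved alike over all kept barcodes. At dpi4, *Col1a2*, *Col3a1*, *Dcn*, *Lum* and *Meg3*, which are lower in KO, had from 96.0% to 100% of their control UMIs in 1 cell, and *Retnla* 76.4%. *Mest* and *Peg3*, higher in KO at dpi4, had 60% and 88.8% of their KO UMIs in 1 cell. *Hspa1b*, a heat shock gene, had 180 and 12.1 CPM at dpi2 and 22.9 and 93.6 at dpi4, beside 59.2 and 20.6, then 13.2 and 36.8 in all kept barcodes. It thus moved in the same direction over all kept barcodes.

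Genes of dendritic cell identity differed little between the genotypes. None of 8 core genes, 9 scored type 2 genes and 12 transcription factors was past the rule at either time. *Irf4* had 39.1 and 67.0 CPM at dpi2 and 58.5 and 50.8 at dpi4, and *Klf4* 403 and 500, then 457 and 424. *Ccr7*, the receptor that guides dendritic cells to lymph nodes, had 33.0 and 76.7 CPM at dpi2 (log2 ratio 1.22) and 80.3 and 47.0 at dpi4. *Il4i1*, an amino acid oxidase gene of mature dendritic cells, had 6.91 and 27.0 CPM, then 34.6 and 14.1. All 8 scored mature dendritic cell genes were above 0 at dpi2, with a median of 1.03, and 4 of 8 at dpi4. At dpi2, 5 of the 8 had the UMIs asked for by the size rule. Of these, 3 were past it as higher, beside 1.09% of all genes tested. The 3 were *Ccr7*, *Ccl17* and *Il4i1*, and they rested on few cells. A single KO cell at dpi2 held 34.7% of the *Ccr7* UMIs. Without the highest cell of each library the *Ccr7* log2 ratio was 0.90, short of 2-fold. *Ccl17* UMIs came from 2 control and 3 KO cells, while *Il4i1* kept a log2 ratio of 1.73 without the highest cells. UMIs of both *Ccr7* and *Fscn1* were held by 0 control and 2 KO members at dpi2, then by 2 and 3. Of 10 genes for repair and lipid handling, *Lpl* (lipoprotein lipase) and *Spp1* (osteopontin) were past the rule as lower in KO at dpi2, with 72.5 and 13.3 CPM and with 312 and 146.

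*Siglech* and *Ccr9*, markers of plasmacytoid dendritic cells, were higher in KO at dpi4. *Siglech* had 15.4 and 14.1 CPM at dpi2 and 40.1 and 98.3 at dpi4, a log2 ratio of 1.29 (0.90 to 1.70). *Ccr9* had 8.83 and 5.65, then 15.6 and 40.4. The gate holds no limit against such cells. The *Ccr9* ratio reversed to -0.77 when the MHC class II limit was raised to 100 per 10000 and to -0.50 when the C1q limit was lowered to 2, so its direction depended on members near these limits.

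The last comparison set dpi4 against dpi2 within each genotype, and more genes differed than between genotypes. In control, 280 of 6791 genes were higher at dpi4 (4.12%) and 343 lower (5.05%). In KO, 244 of 6903 were higher (3.53%) and 209 lower (3.03%). In the same direction in both genotypes were 92 genes higher and 77 lower at dpi4. The gate excluded more barcodes for C1q at dpi4 (above), and the summed macrophage genes were higher then in both genotypes. These summed genes were also higher at dpi4 in T cells and in type 1 dendritic cells of both genotypes.

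Some genes of several lists were higher at dpi4 in both genotypes. Of the macrophage genes, 5 of 9 scored were past the rule in control and 4 of 8 in KO, among them *Apoe*, *Cd163*, *Gpnmb* and *Trem2* in both. Of the repair and lipid genes, 2 of which are also in the macrophage list, 4 of 9 and 5 of 8 were past it. Of the MHC class II genes that the gate did not use, 2 of 9 were past it in each genotype. Of the dendritic cell core genes 1 and 2 of 8 were, and of the type 2 genes 1 of 9 (*Ltb*) in each. Over all genes tested, 4.12% were higher in control and 3.53% in KO. The type 2 list as a whole was not higher in KO, with a median log2 ratio of 0.08 (5 of 9 above 0). In control its median was 0.29 (8 of 9 above 0). *H2-Oa* had log2 ratios of 1.67 (1.41 to 1.94) in control and 1.51 (1.25 to 1.77) in KO, and *H2-Ob*, its partner chain, 1.34 and 1.32. *Flt3* went from 63.3 to 158 CPM in control (log2 ratio 1.32) and from 73.8 to 161 in KO (1.13). *Ltb*, the gene of lymphotoxin beta, had log2 ratios of 2.01 and 2.43. The adhesion gene *Cadm1*, best known from type 1 dendritic cells, had 1.89 and 3.16. *Batf3* and *Irf8* were past the rule in KO alone (log2 ratios 1.69 and 1.52), at 0.78 and 0.67 in control. *Fcgr2b*, *Fcgr3* and *Fcgr4*, IgG receptors of low or intermediate affinity, had log2 ratios from 1.01 to 1.56 over the 2 genotypes. *Egr1*, an immediate early gene, had log2 ratios of 1.65 and 1.68.

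Other genes higher at dpi4 were not in the dendritic cell lists. *Epcam*, an adhesion protein of epithelia and of Langerhans cells, went from 1.54 to 54.1 CPM in control and from 1.61 to 41.8 in KO. *Hpgd*, which breaks down prostaglandins, went from 27.2 to 153 and from 16.5 to 115. *Mmp12*, a macrophage elastase, went from 3.07 to 81.4 and from 3.63 to 29.6. *Abcg3* and *Hepacam2* also led, at 25.1 and 44.0 CPM in control at dpi4. *Itm2a*, *Igfbp5* and *Col1a2* led as well, but in control at dpi4 a single cell held 92.8%, 94.5% and 96.0% of their UMIs, and in KO 52%, 78.0% and 46.7%. For *Mmp12* a single cell held 52.7% of the UMIs in control at dpi4. *Apoe*, the lipid carrier of macrophages, went from 173 to 1033 CPM and from 154 to 528. T cells had 336, 72.9, 974 and 496 CPM of *Apoe* in the order control and KO at dpi2, then at dpi4, and type 1 dendritic cells had 86.5, 64.3, 1327 and 301. The part of free RNA in the members' *Apoe* was not tested.

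Lower at dpi4 were monocyte genes. Of 10 listed, 8 were past the rule in control and 4 in KO, with medians of -1.50 and -0.75. Over all genes tested, 5.05% were lower in control and 3.03% in KO. *Chil3*, a chitinase-like protein of monocytes, went from 138 to 2.23 CPM in control and from 156 to 7.52 in KO. *Vcan*, a matrix proteoglycan, went from 53.3 to 6.13 and from 78.7 to 5.64. *Thbs1*, *Timp1*, *Slpi*, *Dmkn*, *Fkbp5* and *Ccl7* were lower in both genotypes too. *Ly6c2* was past the rule in control (-2.85) and not in KO (0.33). Interferon-induced genes were likewise lower at dpi4 in control (15 of 19 past the rule, median -1.25) and not in KO (none lower, median -0.11), and this comparison shares its dpi2 control library with the one between genotypes. Cell cycle genes had 7 of 10 past the rule as lower in control and none in KO, with medians of -1.44 and -0.54. In control, 23 of 210 members held 10 or more UMIs of this list at dpi2, and 4 of 151 at dpi4. In KO, 14 of 151 and 8 of 185 did. The summed level of the median member was not lower at dpi4 in either genotype. The lower values in control thus went with fewer members high in these genes, not with a lower median member. The difference between genotypes in these time courses was not tested.

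**Figure D5:**
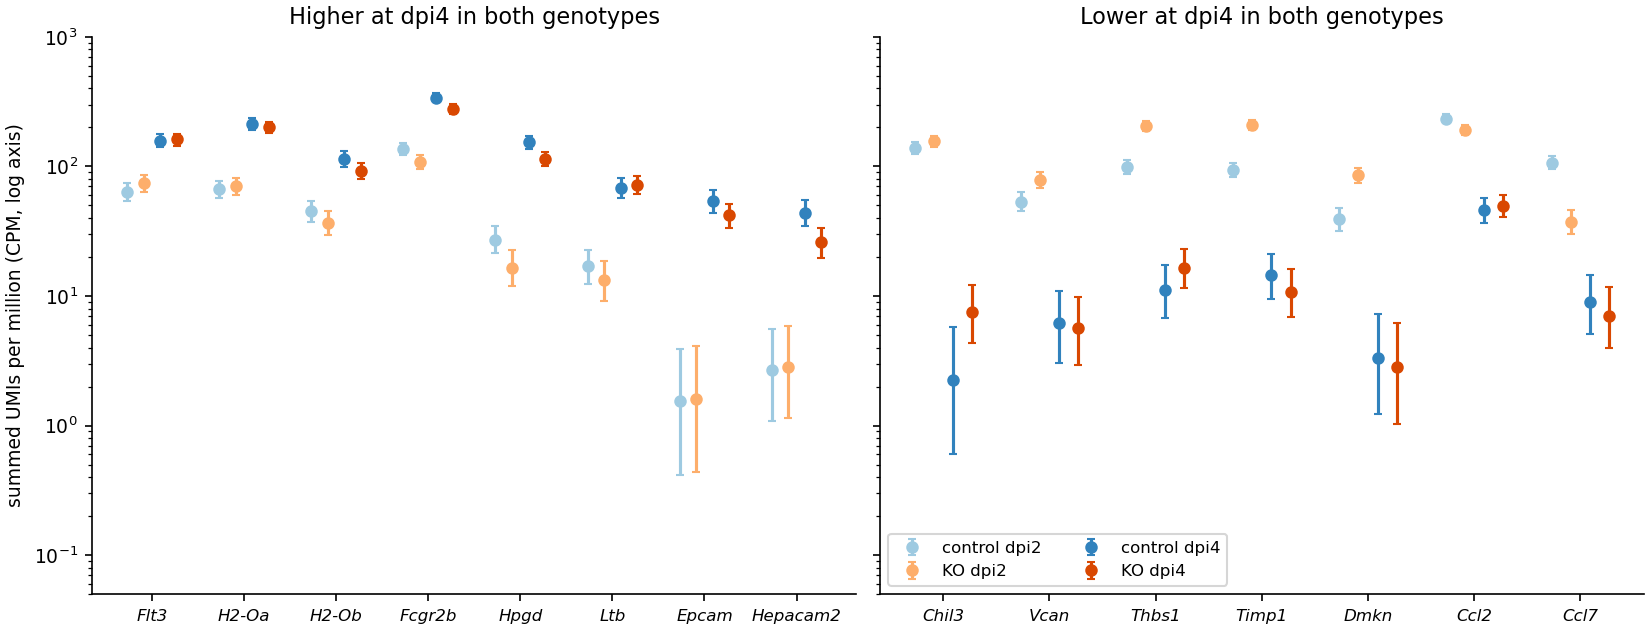
Levels (CPM, log axis) of genes that were higher (left) or lower (right) at dpi4 in both genotypes, in the *Cd209a* dendritic cells of the 4 libraries, with exact 95% counting intervals. In each gene both dpi4 libraries lay on the same side of both dpi2 libraries, such as *Chil3* with 138 and 156 CPM at dpi2 and 2.23 and 7.52 at dpi4.

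The members also differed among themselves along the genes that mark them. With each cell at 3000 UMIs, members with and without a UMI of 1 gene were compared in every library over 305 listed and named genes, as a description. Members with *Mgl2* (21, 23, 36 and 38 cells) held *Mrc1*, the mannose receptor gene, in 10.0 to 25.4 points more cells than those without, and *Fcgr3* in 8.28 to 26.3 points more. They held *Klrd1* in fewer cells (differences from -23.5 to -6.59 points), and *Irf8*, *Bcl11a* and *Runx3* in fewer as well. *Klrd1*, named with *Mgl2* as a marker of these cells, was thus found less often in members with *Mgl2* in all 4 libraries. No intervals were computed for these splits, and the groups with *Mgl2* were small. Members with *Flt3* held *Klrd1* in 7.63 to 22.1 points more cells and *H2-Oa* in 4.99 to 17.0 points more, and held *Tgfbi* in fewer (-24.3 to -7.74). They also held *Irf7* (-15.7 to -6.75) and *Rsad2* (-11.0 to -4.38) in fewer cells.

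Members with *Ly6c2* (81, 20, 8 and 22 cells) held *Plac8*, a gene of monocytes, in 20.4 to 37.8 points more cells, and *Rsad2* (9.50 to 22.0) and *Irf7* (6.19 to 27.2) in more. They held *Ifitm1* (-31.7 to -11.4), the integrin gene *Itgax* (-16.6 to -11.4) and *Fcgr2b* (-27.3 to -5.24) in fewer. *Ly6c2* was scarce in the members of control at dpi4, where only 8 cells carry the comparison. The cells of a library share its free RNA, and the groups of cells overlap.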

How the data were processed

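Per the labels and the study's methods, the authors aligned droplet 3′ single-cell reads to mm10 with Cell Ranger (version 6.1.2 in the submitters' processing notes). The deposited matrices hold raw UMI counts of 27998 genes per barcode, not normalized, for 1 library per group. The study's own filters (miQC, scDblFinder, Harmony) were not rerun. Barcodes with at least 500 genes and under 10% mitochondrial UMIs were kept, and the dendritic cells were gated as given above; doublets were not removed, and removing the highest Scrublet scores (scanpy 1.11.5) was an alternative. The members and gene lists were chosen with earlier results of these data known.

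UMIs were summed over the members of a library and divided by their total (CPM), since cells are not replicates. Ratios have exact conditional binomial intervals, CPM exact Poisson, shares Clopper-Pearson, and differences of shares Newcombe intervals from exact limits, all at 95% and for counting error only. Against a count of 0, 3 counts were used as the floor of that library. List genes needed 20 UMIs in the pair of libraries to be scored. Mitochondrial genes and the genes of the gate were left out of the counts of genes. Named genes were those of the lists, the first genes by size past the rule at each time, at both times, in opposite directions and over time in both genotypes, and the leading genes of each comparison with neighbouring cells; the features held no row for *Clec7a*, *Ighm* and *Trac*, and *Itgam* had 2, of which 1 was used. *Bach1*, *Lyz2* and genes discussed singly were listed ones. The size rule was tried on simulated counts that held counting error only. Such counts have no spread between cells or mice, so they cannot check the rule against it. The members summed to 2605725 (control) and 2478540 (KO) UMIs at dpi2, and to 1793577 and 2127121 at dpi4. Alternatives were other gate limits, 1000 genes per cell, other fold and UMI minimums, size factors from edgeR 4.0.16 (TMM) and DESeq2 1.42.0, and the mean over cells; a looser C1q limit and leaving out each gene's highest cell or stroma-rich cells were added after the data were seen. No p-value was computed. A few genes are counted in their lists but not reported here by name. Python 3.11.15 with scipy 1.17.1 was used. Gene positions are from GENCODE for GRCm38, the assembly of mm10.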

Additional observations from a re-analysis of the deposited data

Results flagged for a closer look

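In 15 genes the KO over control ratio went past 2-fold in opposite directions at dpi2 and dpi4, and 14 of them are given here. The genes were chosen for this, so large differences were set by that choice. The difference between the time points was not tested, because each group was 1 library, and the values are dpi4 minus dpi2 differences of log2 ratios with their counting intervals. Heat shock genes and other genes lower in KO at dpi2 and higher at dpi4 were *Hspa1b* (5.93, 5.21 to 6.65), *Hspa1a* (3.46, 3.02 to 3.89) and *Dnaja3* (2.55, 1.28 to 3.83). The interferon-induced genes *Cxcl10* (4.21, 3.82 to 4.61) and *Gbp7* (2.53, 1.87 to 3.19) and the mitotic gene *Ube2c* (2.52, 1.86 to 3.17) had the same order. For *Cxcl10*, most KO UMIs at each time lay in a single cell. Without the highest cell of each library its dpi4 ratio was short of 2-fold. The same order was found for *Spib* (2.72, 1.52 to 3.92), a factor of plasmacytoid dendritic cells, *Kctd14* (2.36, 1.49 to 3.22) and *Arid3a* (2.02, 0.87 to 3.17).

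The order was the other way round for *Gdf15* (-3.46, -4.12 to -2.79), a stress-induced cytokine gene, and for *Il4i1* (-3.26, -4.24 to -2.28). It was so too for the lectin receptor genes *Clec4e* (-2.72, -3.22 to -2.22) and *Clec4d* (-2.25, -2.90 to -1.60), and for *Tnfaip2* (-2.41, -2.90 to -1.92). A single KO cell at dpi2 held 54.4% of the *Gdf15* UMIs.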

How the results depend on the processing

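With 1 library per group, no difference has a replicate check, leaving out a library leaves no comparison, and depth limits only the counting error. No paired analysis was possible because each group held 1 library and no test was run. The KO minus control difference in the share of cells kept its direction under every alternative gate, and the *Hmox1* ratios stayed past the rule. TMM or DESeq2 factors shifted ratios by at most 0.052 on the log2 scale.

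Counts of genes (higher and lower) followed the limits. At 1.5-fold they were 269 and 368 (KO over control, dpi2), 221 and 197 (dpi4), 686 and 915 (dpi4 over dpi2, control) and 702 and 599 (KO). With at least 200 UMIs they were 27 and 48, 9 and 19, 82 and 132, and 63 and 84. With no UMI minimum they were 225 and 263, 258 and 236, 738 and 531, and 771 and 388. Without each gene's highest cell, 33 were lower in KO at dpi4 in place of 67.

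With C1q under 10 per 10000, the KO over control median at dpi4 was -0.21 for interferon genes and 0.069 for repair and lipid genes, and *Fscn1* was at -0.091. With C1q under 2, the dpi4 values were -0.10 for plasmacytoid genes, -0.50 for *Ccr9* and 0.19 for *Mmp12*, and the cell cycle median over time in KO was 0.080. As a mean over cells that median was 0.0019. *Ccr9* was at -0.77 with MHC class II at 100 or more. With 2 or more *Cd209a* UMIs, *Lyz1* was at -0.99 at dpi4 and at -1.85 over time in KO. Without each gene's highest cell, *Ccl5* was at -0.20 and *Col1a2* at 1.68 at dpi4, and without stroma-rich cells *Col1a2* was at 1.71. Apart from the alternatives' own construction, the cause was not tested.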
